A study of Drosophila melanogaster with 60 samples.

Results

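Of the probes measured through Drosophila metamorphosis, 131 gave higher transcript levels in tud progeny than in wild type in males and in females alike. tud progeny have no germline because the maternal tudor (tud) product needed to form it was missing. A probe was eligible when at least 2 of the 3 arrays in each of the 20 groups gave a value, and 2843 of the 15744 probes that are not controls were. It was a member of the set when tud progeny exceeded wild type by 0.5 or more on the log2 scale (1.41-fold), averaged over 5 hours of collection, in males and also in females. This held for 135 probes. The rule set 5 probes aside by name (Lsp1alpha, CG15369, CG34166, CG31775 and 1 probe of white), 4 of which met the differences, and 131 members remained, which is 4.61% of the eligible probes. The members were chosen by the measured difference between the genotypes, and its size is given below as a description with no test.

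RNA from whole pupae was compared with a common reference on 60 dual-colour oligonucleotide arrays, with 3 arrays in each group. The tud progeny came from the cross of tud1 bw1 sp1 mothers with fathers that carried y, w, P[w+ UBI-GFP], and the wild type animals were of the Canton S strain. Both sexes were collected as white prepupae and aged for 0, 24, 48, 72 or 96 h after puparium formation (APF). Only the daughters of that cross had the GFP. The animals therefore differed in genetic background as well as in the germline, and these cannot be told apart here. Each value is a log2 ratio of sample to reference, and each group pooled several pupae. Nothing in the labels says whether the 3 arrays of a group came from separate collections, so the tests measure the spread between these arrays.

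Metamorphosis rebuilds the animal in a closed case, with no food taken in. Larval tissues are broken down, storage proteins that the fat body made before pupariation are used up, and in the later pupal stages the epidermis lays down the adult cuticle, in which chitin is bound by cuticle proteins and coloured by enzymes of the melanin pathway. Transcripts of these processes appear and disappear within hours, so the level of such a gene depends strongly on the stage.

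A paired gene name was found for 54 of the 131 members and for 1159 of the eligible probes. The remaining 77 members are called by their probe identifiers. Among the 2357 probes with a paired name no second probe of these 54 genes was found. Each gene thus rests on 1 oligonucleotide here, and unnamed probes could not be checked. In 68 members (51.9%) at least 1 group mean lay under -3 on the log2 scale, that is, far below the reference, against 15% of the eligible probes. The median residual SD between replicate arrays was 0.48 in the members and 0.27 in all eligible probes.

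The arrays carried 3954 to 10236 values each, and replicate arrays correlated with r of 0.69 to 0.96 across probes. The lowest r was between arrays of wild type males at 24 h, where replicate 1 stood apart in some members. It read -1.41 in yellow-d2, against -4.91 and -5.08 on the others, and -4.63 in DAC039C07, against -1.27 and -1.62. Results for males include this array, and it was left out only among the settings that drop single arrays. The 16 testis markers that were measured were lower in tud males, with differences of medians of -7.83 to -0.99, and none of them is a member. The 2 ovary markers that were measured showed no such drop in tud females. Their differences of medians there were 0.12 for Cp7Fb and -0.20 for yl, and neither is a member. The listed germline markers, such as vas and nos, were not analysed here. Which channel stood on top was settled with roX1, an RNA of the male dosage compensation complex. It was 6.90 higher in males than in females of tud progeny and 5.05 higher in wild type (permutation p = 2e-05 in each, two-sided, the smallest that 100000 resamples can give). For tud females at 48 h the labels of replicates 1 and 2 go against their titles, and without these arrays 126 probes met the rule. Another array stood apart among the members. Replicate 3 of tud males at 96 h was the lowest of its 3 arrays for 79 of the 113 members measured on all 3 (69.9%), against 42.1% of the other eligible probes, and lay at least 1 below both others for 53 of the members. Results for males include it, and are also given without it where that moves a value at 96 h by over 1.5 times, changes its sign or changes a call, a choice made after seeing the data.

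Averaged over the 5 hours, the median difference of the members was 0.75 in males (1.68-fold) and 0.76 in females (1.70-fold). All eligible probes had medians of 0.21 and 0.02 in males and females. A difference of 0.5 or more was seen in 14.9% of the eligible probes in males and in 7.14% in females, and the reverse, 0.5 or more lower in tud progeny of both sexes, in 28 probes. Only 16 members differed by 1 or more (at least 2-fold) in both sexes. The largest mean differences were 2.81 in males and 3.22 in females, both of the probe DAC029H06.

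**Figure D1:**
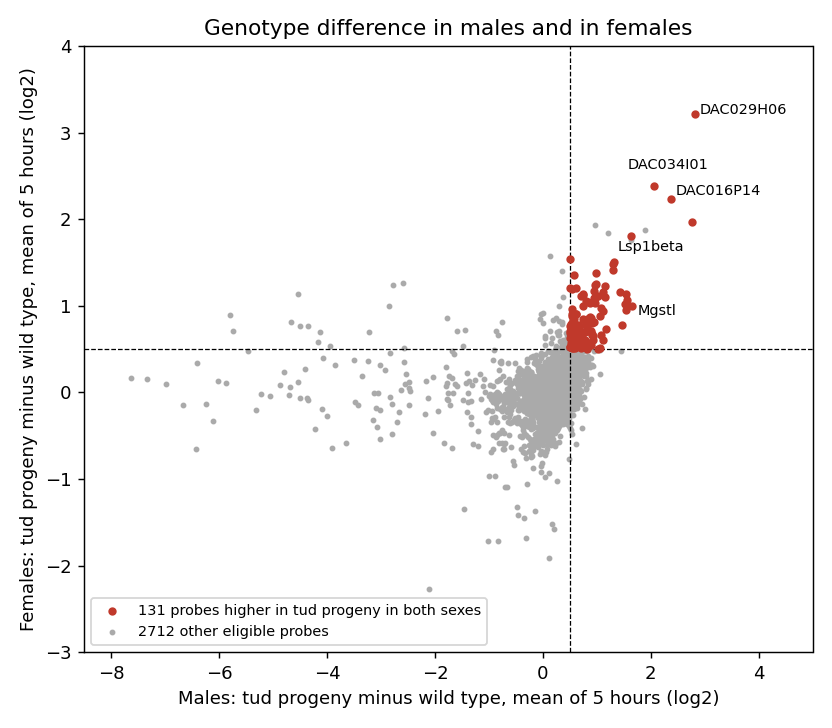
Mean difference of 5 hours, tud progeny minus wild type on the log2 scale, in males (x axis) and females (y axis) for the 131 members (red) and the 2712 other eligible probes (grey). Dashed lines mark 0.5 in each sex, and the members fill the corner above both lines, most of them under 1, beside the 4 grey points of the probes set aside by name.

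Members and other probes lay close together at the threshold. Just inside were the unnamed probes DAC036E01 (0.50 in males and 0.77 in females), DAC010K15 (0.50 and 0.52) and DAC004N06 (0.50 and 1.21). Just outside were DAC014I01 (0.50 in males, just short of the threshold, and 0.60 in females), DAC023G09 (0.50, likewise just short, and 0.67) and DAC015C10 (1.06 and 0.49). The SE of these means was 0.15 to 0.35, larger than the distance to the threshold in each case.

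The difference was greatest at the end of pupal life. Taken in the order of the hours, the median over the members was 0.78, 0.74, 0.54, 0.47 and 1.27 in males and 0.46, 0.73, 0.51, 0.32 and 1.61 in females. The median of all eligible probes at 96 h was 0.18 in males and 0.04 in females. Among the 5 hours, 96 h gave the largest difference for 71 members in males (54.2%, against 31.6% of eligible probes). In females it did so for 80 members (61.1%, against 33.8%). It did so in both sexes for 62 members, against 15.6% of eligible probes. Without replicate 3 of tud males at 96 h the male median at that hour was 1.44. The male count was then 74 (56.5%, against 31.3% of eligible probes).

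At 96 h the 3 arrays of tud females lay wholly above the 3 arrays of wild type females for 115 members (87.8%, against 31.4% of eligible probes). In males this held for 73 members (55.7%, against 29%), and for 111 (84.7%, against 41.9%) without replicate 3 of tud males. At the earlier hours such separation was seen in fewer female members, namely 58 for 0 h (against 12.8% of eligible probes), 75 for 24 h (22.9%), 42 for 48 h (8.48%) and 51 for 72 h (13.4%). Among males the counts were 83 for 0 h (21.9%), 69 for 24 h (45%), 55 for 48 h (29.7%) and 72 for 72 h (33.7%). Since these values chose the members, the counts describe how the difference is spread over the hours and no more.

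**Figure D2:**
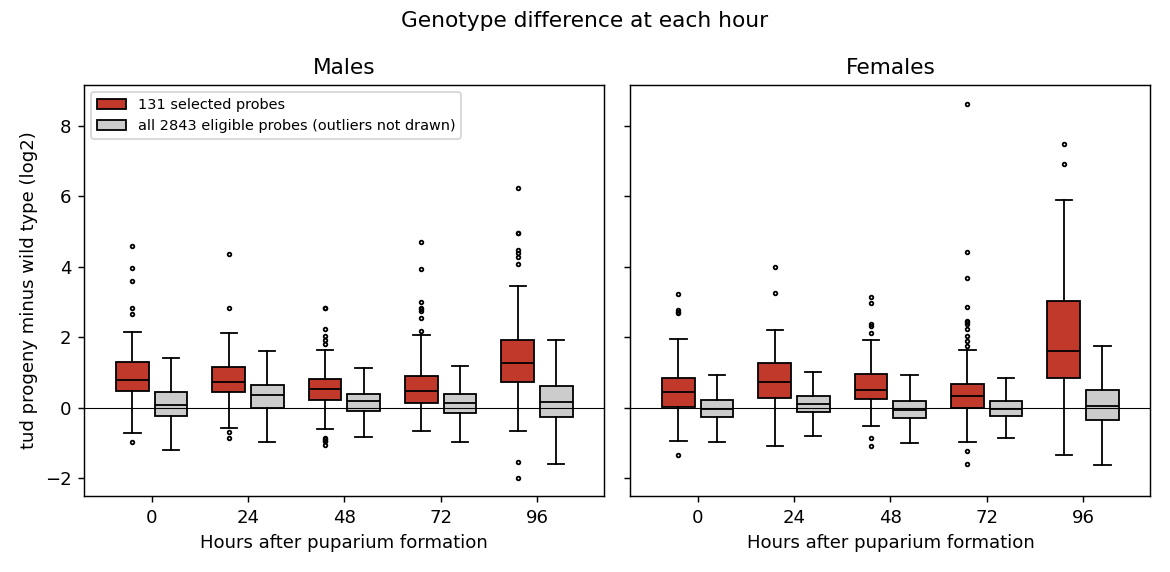
Difference of tud progeny minus wild type (log2) at each hour APF in males (left) and females (right), for the 131 members (red boxes) and all 2843 eligible probes (grey boxes, outliers not drawn). Boxes span the quartiles with the median as a line and whiskers reach 1.5 times the box height. The members are highest at 96 h in both sexes, with medians of 1.27 in males and 1.61 in females.

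Whether the genotype difference changed over time was tested with contrasts that do not contain the 5-hour mean used by the rule. A large difference at a single hour can still carry a probe past the rule. The shares of members called therefore describe the set and no more. In males 75 of the 131 members (57.3%) were past an adjusted p of 0.15, where 53.1% of all eligible probes were called. In females 96 members (73.3%) were called, where 42.9% of all eligible probes were. Both tests called 62 members (47.3%, against 25.8% of eligible probes), and neither called 22 (16.8%, against 29.7%). Without replicate 3 of tud males at 96 h the male test called 90 members, where 55.2% of eligible probes were called. The adjusted p came from limma's moderated F test with Benjamini-Hochberg adjustment over the 2843 probes. These tests say that the difference was not the same at all hours and not that it was absent at any of them.

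**Figure D3:**
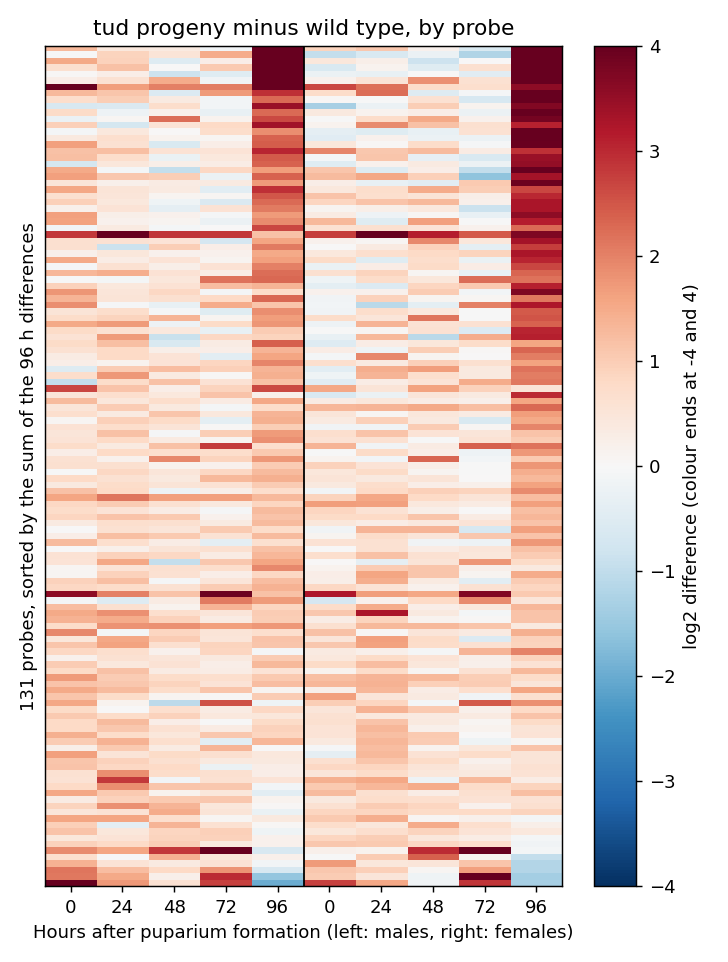
Difference of tud progeny minus wild type (log2, colour) of each of the 131 members (rows, sorted by the sum of the differences at 96 h) at the 5 hours APF in males (left of the line) and females (right). Members at the top are highest at 96 h, a few rows are high at all hours, and the last rows turn negative at 96 h.

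The larval storage proteins illustrate the difference at 96 h. Larval serum protein 1 beta (Lsp1beta, probe DAC038C12, CG4178) and Larval serum protein 1 gamma (Lsp1gamma, DAC023G23, CG6821) are hexamerins that the larval fat body secretes in bulk and that serve as an amino acid store, and Fat body protein 2 (Fbp2, DAC027G15, CG3763) is another product of that tissue. At 96 h Lsp1beta read -1.20, -1.45 and -2.11 in tud males, against -4.16, -4.96 and -4.76 in wild type males. In females it read -0.99, -1.14 and -1.27 in tud progeny at that hour, against -3.91, -4.03 and -4.27 in wild type. The groups did not overlap in either sex, and the differences were 3.04 in males and 2.94 in females. At 72 h Lsp1beta was -1.55, -1.83 and -1.85 in tud males and -2.73, -2.13 and -2.05 in wild type males. In females at that hour the arrays overlapped, with -1.34, -0.59 and -1.21 in tud progeny and -1.13, -1.63 and -1.31 in wild type. The wild type level thus dropped between 72 and 96 h while that of tud progeny stayed near its earlier value. In the test of change over time, Lsp1beta had an adjusted p of 4.69e-05 in males and 5.42e-05 in females (limma).

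Lsp1gamma followed the same course. At 96 h it was -0.53, -0.50 and -1.86 in tud males, against -3.09, -3.55 and -3.70 in wild type males. Tud females gave -0.23, -0.41 and -0.70, against -3.42, -3.38 and -3.62 in wild type females. The difference of Lsp1gamma at 96 h was 2.48 in males and 3.03 in females. It was 0.08 and 0.25 at 72 h. The change over time had an adjusted p of 1.32e-05 in males and 1.50e-06 in females (limma). Averaged over all hours Lsp1gamma differed by 0.75 ± 0.12 in males and 1.12 ± 0.12 in females (SE), and Lsp1beta by 1.32 ± 0.13 and 1.51 ± 0.13.

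Fbp2 was already higher at 0 h, with 1.40, 1.53 and 1.28 in tud males and 0.69, 0.43 and 0.23 in wild type males. Tud females gave 1.42, 1.32 and 1.29 at 0 h, and wild type females 0.59, 0.11 and 0.72. At 96 h it was -2.13, -1.97 and -2.54 in tud females and -5.07, -5.54 and -5.79 in wild type females. In males at 96 h the arrays were spread more widely in tud progeny, with -2.47, -2.23 and -3.84 against -4.74, -5.23 and -5.33 in wild type, still without overlap. At 72 h tud males were the lower ones, with a difference of -0.59. The change over time had an adjusted p of 7.46e-05 in males and 3.71e-05 in females (limma). With Lsp1alpha, which the rule set aside, and Fbp1, which did not reach the male threshold, all 5 measured genes of the storage list were called in both sexes, and their median difference at 96 h was 2.27 in males (2.85 without replicate 3 of tud males) and 3.20 in females. These genes are also the markers of fat body. By the difference of medians over all hours, 2 of the 5 were lower in tud males, Fbp1 at -0.64 and Fbp2 at -0.15. The median over the 5 was 0.36 in males and 0.95 in females, where none was lower. In whole animals a change in the number of fat body cells and a change of RNA per cell cannot be told apart.

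**Figure D4:**
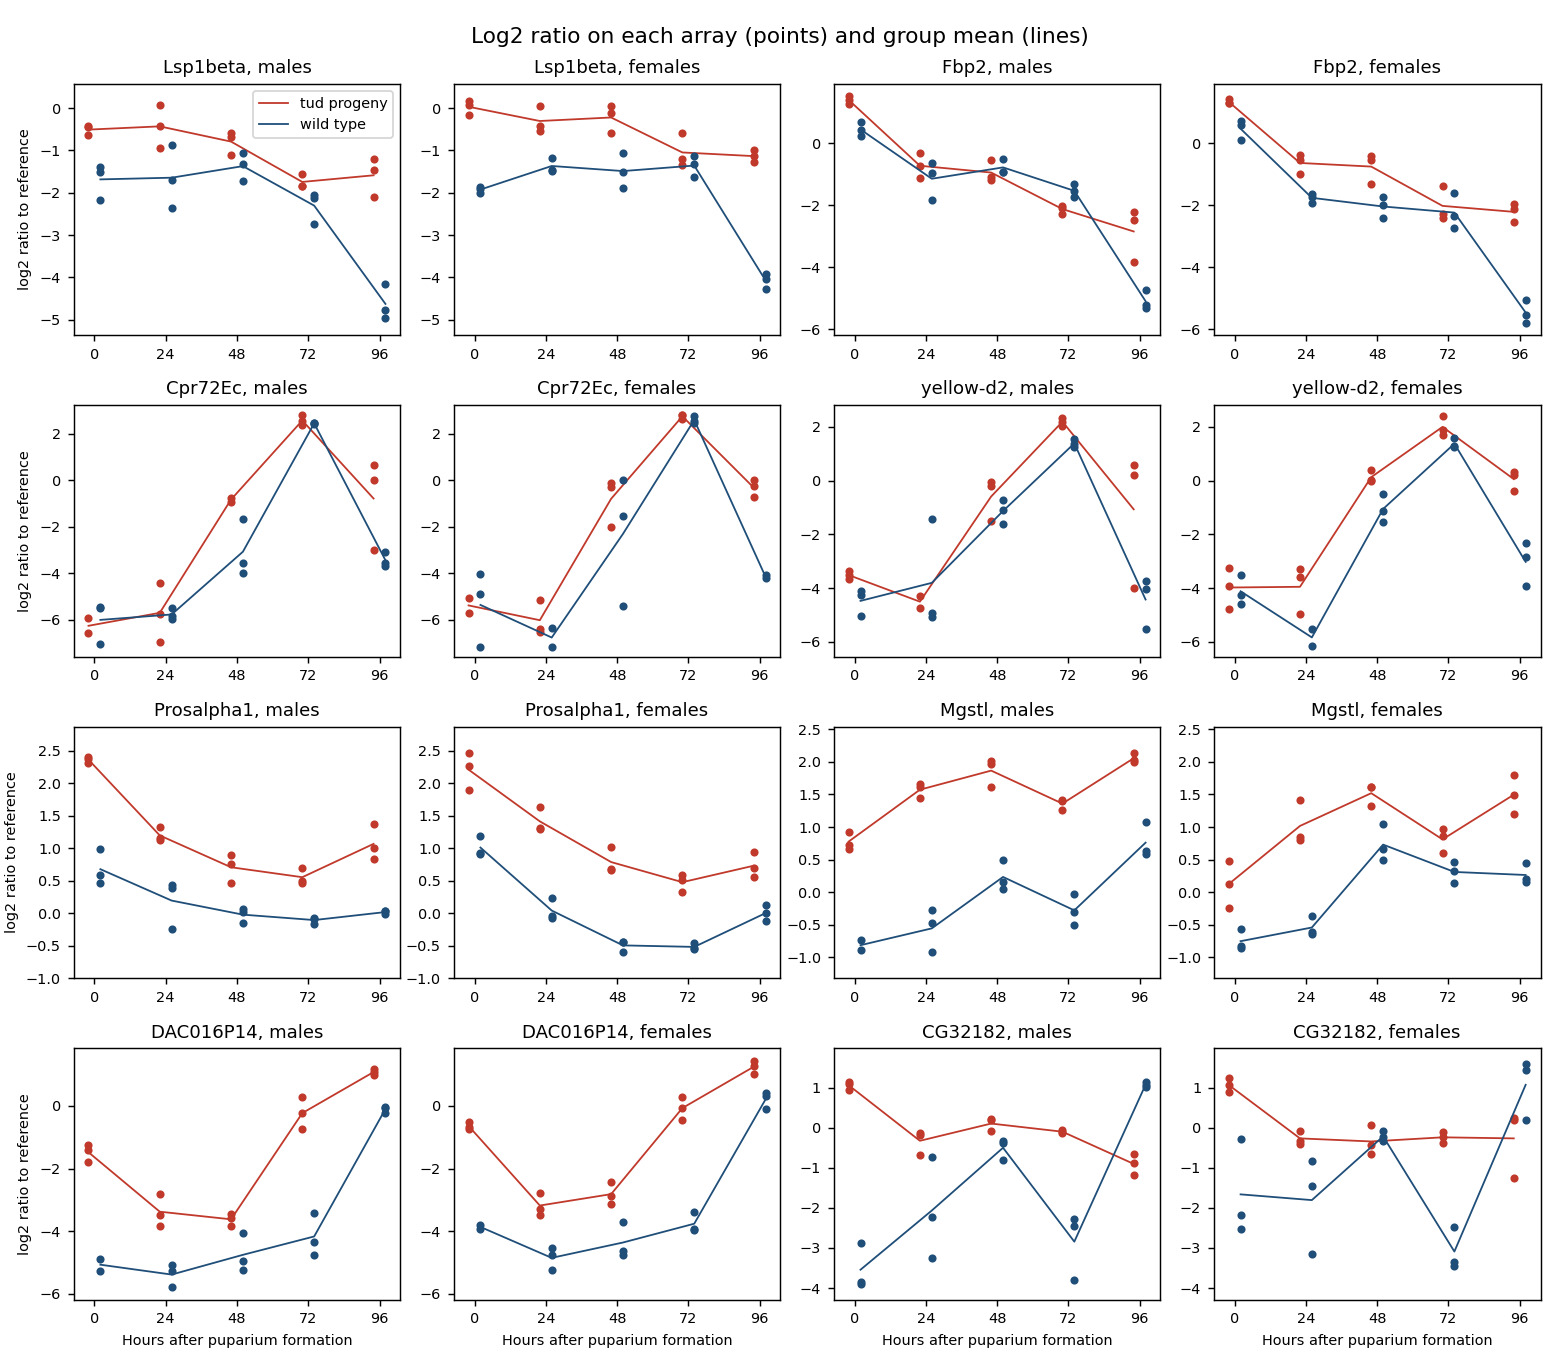
Log2 ratio to the reference on each array (points) and group mean (lines) against hours APF in tud progeny (red, drawn left of each hour) and wild type (blue, drawn right of it), for 8 members in males and females. Lsp1beta, Fbp2, Cpr72Ec and yellow-d2 separate most at 96 h, Prosalpha1 and Mgstl at every hour, DAC016P14 least at 48 and 96 h, and CG32182 turns round at 96 h.

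Of the 4 cuticle genes among the members, Cpr72Ec and the gene of resilin differed most at 96 h. Cuticular protein 72Ec (Cpr72Ec, DAC023D20, CG4784) belongs to the chitin-binding cuticle proteins. It peaked at 72 h at the same height in both genotypes, with 2.35, 2.78 and 2.56 in tud males against 2.47, 2.45 and 2.40 in wild type males. By 96 h it had dropped to -0.01, 0.66 and -3.02 in tud males, against -3.55, -3.09 and -3.69 in wild type males, and replicate 3 of tud males alone came down to just above the wild type range. In females at 96 h tud progeny had 0.02, -0.24 and -0.74, against -4.21 and -4.09 on the 2 wild type arrays with a value. The mean difference over the hours was 0.97 ± 0.40 in males and 1.25 ± 0.41 in females (SE). Change over time passed the threshold in females (adjusted p = 0.119, limma), a call that 9 other settings lost, and missed it in males (adjusted p = 0.164, limma). Without replicate 3 of tud males at 96 h the male adjusted p was 0.033 (limma).

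The gene of resilin (DAC032L01, CG15920), the rubber-like protein of elastic cuticle, followed a like course. It peaked at 72 h with 1.71, 1.76 and 1.90 in tud females and 2.12, 2.03 and 1.97 in wild type females, where the wild type was slightly higher. By 96 h it was 0.63 and 0.17 on the 2 arrays of tud females with a value, against -3.08, -2.40 and -2.47 in wild type females. In males at 96 h it was 0.26, 0.72 and -3.51 in tud progeny, against -2.59, -2.37 and -2.46 in wild type, so that replicate 3 lay below the wild type and the others far above it. The male difference at 96 h was 1.63, and 2.96 without replicate 3. A change over time was called in females (adjusted p = 0.00373, limma) and not in males (adjusted p = 0.239, limma), where it was called without that array (adjusted p = 0.000139, limma).

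obstructor-E (obst-E, DAC032B16, CG11142), which encodes a chitin-binding protein of the cuticle, differed by 1.11 ± 0.26 in males and 1.15 ± 0.25 in females over all hours (SE). It was highest at 96 h in tud progeny, with 1.12, 0.73 and 0.80 in tud males against -0.25, -0.26 and 0.08 in wild type males. Tud females gave 1.12, 0.72 and 0.70, against -0.46, -0.22 and -0.15 in wild type females. Its largest female difference, 3.27, was at 24 h, with -1.04 and -0.43 on the 2 arrays of tud females that had a value and -5.10 and -2.92 on those of wild type females. The fourth cuticle gene among the members, Cpr12A, differed by 0.76 in males and 0.54 in females over all hours, and in females most at 72 h, by 1.77.

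These were 4 of the 28 eligible probes of the cuticle and chitin list (14.3%, against 4.61% of all eligible probes), 1 of which belongs to a chorion protein, not to cuticle. The list as a whole had a median difference of 0.24 in males and 0.07 in females over all hours, little above the medians of all eligible probes. At 96 h its medians were 0.78 and 0.61. Members of the list that went the other way in females included Cht5 and Cpr72Ea, at -1.45 and -0.93 over all hours, so the list did not move as one. Peritrophin-A (DAC037O09, CG17058), a chitin-binding protein, was the member from the digestion list. It had 0.57, 0.34 and 0.02 in tud females at 96 h, against -2.67, -1.22 and -1.28 in wild type females, and its change over time was not called in males (adjusted p = 0.382, limma) or in females (adjusted p = 0.252, limma).

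Of the yellow family, whose products act on the melanin precursors of the cuticle or resemble those that do, 2 genes were members. Wild type yellow-d2 (DAC007E06, CG9891) peaked at 72 h, and so did that of tud progeny, with 2.35, 2.19 and 2.05 in tud males and 1.37, 1.25 and 1.55 in wild type males. Tud females gave 1.71, 2.41 and 1.89 at 72 h and wild type females 1.26, 1.58 and 1.29, again without overlap. At 96 h the values were 0.34, 0.21 and -0.37 in tud females, against -3.93, -2.83 and -2.30 in wild type females. In males at 96 h tud progeny had 0.57, 0.23 and -3.99, against -3.73, -4.02 and -5.51 in wild type, so that replicate 3 fell within the wild type range. For yellow-d2 a change over time was called in males (adjusted p = 0.0289, limma) and just called in females (adjusted p = 0.143, limma). The female call was lost in 38 other settings, among them arrays centred on their medians and the leaving out of many single arrays.

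yellow-f (DAC036G23, CG18550), whose product converts dopachrome in melanin synthesis, differed in another way. Its difference lay between 0.33 and 1.33 at every hour in males and between 0.44 and 1.18 in females, with means of 0.80 ± 0.12 and 0.78 ± 0.12 (SE). At 0 h it was 1.27, 1.05 and 1.45 in tud females and 0.76, 0.73 and 0.26 in wild type females. No change over time was called in males (adjusted p = 0.204, limma) or in females (adjusted p = 0.426, limma), but without replicate 3 of tud males at 96 h it was called in males (adjusted p = 0.0627, limma). In the pigment list 2 of 9 eligible probes were members (22.2%, against 4.61% of all eligible probes).

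The functions of CG13062 (DAC037J10), CG12164 (DAC011A05) and CG15615 (DAC012J03) are not stated here. In CG13062 wild type was the higher genotype at 72 h in females, with 1.32, 0.45 and 1.65 in tud progeny and 2.38, 2.69 and 3.16 in wild type. At 96 h the order was turned round, with 1.46, 0.99 and 0.55 in tud females and -3.29, -1.45 and -2.27 in wild type females. The change in CG13062 had an adjusted p of 0.0016 in females and 0.121 in males (limma), and the male call was lost in 12 other settings, 11 of them with a single array left out. CG12164 and CG15615 had residual SDs of 1.28 and 1.43, and no change over time was called for either gene in either sex, except for CG12164 in males without replicate 3 of tud males at 96 h (adjusted p = 0.0884, limma). In CG15615 replicate arrays at 48 h lay far apart in more than 1 group. Tud females read -2.99, 1.57 and 4.12, tud males 1.20, -0.77 and -4.31, and wild type females 0.71, 0.05 and -3.54. CG12164 was likewise spread in tud females at 48 h, with -4.87, -2.53 and 1.30, so replicate 3 was the highest of that group in both genes. The same array was also the highest in b6, with -2.20, -0.18 and 1.94, and in Peritrophin-A, with -3.69, -0.73 and 0.89. It was not the highest in every member.

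The fall after 72 h was common to many members. In wild type 51 members were highest at 72 h (38.9%, against 15.7% of eligible probes), and in tud progeny 47 were (35.9%, against 14.6%). Between 72 and 96 h the 51 members that peaked at 72 h in wild type changed by a median of -0.93 in tud males and -2.52 in wild type males. Without replicate 3 the median in tud males was -0.38. In females the median was -0.62 in tud progeny and -2.80 in wild type. The fall was of 2 or more for 12 of these members in tud males (6 without replicate 3) and 31 in wild type males, and for 6 in tud females and 36 in wild type females. The 394 other eligible probes that peaked at 72 h in wild type changed by medians of -0.34 in tud males, -0.57 in wild type males, -0.40 in tud females and -0.91 in wild type females. Since a high level in tud progeny at 96 h helped to make a probe a member, these medians are a description only.

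The stage of both genotypes at 96 h was compared over the 2712 eligible probes that are not members. The mean profile of tud females at 96 h correlated with that of wild type females at 96 h with r of 0.83 and with that of wild type females at 72 h with r of 0.72. That of tud males at 96 h correlated with wild type males at 96 h with r of 0.69 (0.64 without replicate 3) and at 72 h with r of 0.26 (0.29). Each group of tud progeny was closest to the wild type of its own hour. Within genotypes the profiles at 72 and 96 h correlated with r of 0.70 in tud females and 0.52 in wild type females, and with r of 0.63 in tud males and 0.29 in wild type males. These correlations are across probes, which are not independent, and include germline transcripts of wild type. The part of such a difference in stage in the members' values was not tested.

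Other members were higher in tud progeny at nearly every hour. A difference of 0.5 or more at all 5 hours in both sexes was found in 6 members, which were singled out after their values were seen. These are Prosalpha1, Mgstl, CCHa2 and the unnamed probes DAC016P14, DAC025G24 and DAC029H06. The difference was above 0 in all 10 comparisons in 40 members.

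Prosalpha1 (DAC010I22, CG18495) encodes an alpha subunit of the proteasome core, the particle that degrades ubiquitin-tagged proteins. At 0 h it was 2.31, 2.40 and 2.38 in tud males and 0.46, 0.58 and 0.99 in wild type males, and 2.26, 1.90 and 2.47 in tud females and 0.91, 1.19 and 0.93 in wild type females. At 72 h tud males had 0.50, 0.46 and 0.70 and wild type males -0.16, -0.09 and -0.07, and tud females had 0.51, 0.59 and 0.33 and wild type females -0.54, -0.46 and -0.56. The arrays of the genotypes did not overlap in any of these groups. The mean difference was 1.03 ± 0.07 in males and 1.12 ± 0.07 in females (SE), about 2.04-fold and 2.17-fold.

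Prosalpha1R (DAC020J19, CG30382), the near-identical copy of Prosalpha1, gave 0.97 ± 0.08 in males and 1.03 ± 0.09 in females (SE). Oligonucleotides for such close copies may bind both transcripts, so these 2 members cannot be taken as separate genes. The rest of the proteasome did not share their difference. Of the 32 eligible probes of proteasome subunits these 2 were the members (6.25%, against 4.61% of all eligible probes). The median over the list was -0.04 in males and -0.14 in females. The difference of Prosalpha1 was largest at 0 h in males, at 1.69, and changed over time in males (adjusted p = 0.00337, limma) and in females (adjusted p = 0.14, limma). The female call was lost in 27 other settings, most of them with a single array left out, and the male call with quantile normalization.

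Mgstl (DAC014E14, CG1742), a microsomal glutathione S-transferase of detoxification, had the largest mean difference of the named genes in males, 1.66 ± 0.09 (3.15-fold), beside 0.99 ± 0.08 (1.99-fold) in females (SE). At 24 h it was 1.44, 1.62 and 1.66 in tud males and -0.28, -0.47 and -0.92 in wild type males. Females at that hour gave 0.84, 0.80 and 1.41 in tud progeny and -0.62, -0.37 and -0.64 in wild type. At 96 h tud males had 2.03, 2.00 and 2.14 and wild type males 0.63, 0.58 and 1.07. It was the member among 6 eligible probes of the detoxification list (16.7%, against 4.61% of all eligible probes). In that list 5 differences were above 0 in both sexes. CCHa2, which encodes a peptide hormone of fat body and gut, differed by 1.07 ± 0.09 in males and 0.98 ± 0.09 in females (SE).

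Ranked by the lower of the differences in the sexes, the first 3 unnamed probes were DAC029H06, DAC016P14 and DAC034I01. DAC029H06 stood between -0.95 and 0.87 on all arrays of tud males up to 72 h, against -4.39 to -1.82 in wild type males, and no array overlapped. At 96 h tud males had -0.52, -0.07 and -2.55, against -3.24 and -1.19 in wild type males, where replicate 3 of tud males fell between the wild type values. The male difference at that hour was 1.17, and 1.92 without replicate 3. Tud females gave -0.33, -0.68 and -0.72 at 96 h and wild type females -4.53, -4.21 and -4.22. The mean differences were 2.81 ± 0.21 in males (7.04-fold) and 3.22 ± 0.22 in females (9.31-fold).

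DAC016P14 differed most at 0 and 72 h. At 72 h it had -0.73, -0.23 and 0.28 in tud males and -4.34, -3.41 and -4.74 in wild type males, a difference of 3.94. In females at 72 h it had -0.05, -0.45 and 0.30 in tud progeny and -3.37, -3.96 and -3.94 in wild type, a difference of 3.69. At 96 h both genotypes had their highest values, with 1.09, 0.98 and 1.18 in tud males against -0.02, -0.21 and -0.06 in wild type males. The change over time had an adjusted p of 7.01e-06 in males and 5.21e-05 in females (limma).

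DAC034I01 owed its place partly to single arrays. In males replicate 1 of tud progeny stood far above the other 2 arrays. It read 2.39 at 24 h, against -3.65 and -2.95 on those, 4.38 at 48 h, against -1.17 and -1.97, and 3.10 at 72 h, against -0.09 and -0.72. Wild type males at 72 h read -4.07, -4.04 and -3.69. In females at 72 h all arrays of tud progeny were high, with 6.27, 3.71 and 4.91 against -4.35, -3.29 and -3.37 in wild type. At 48 h replicate 1 of tud females, whose labels go against its title, read 5.78, against -1.86 and -1.37 on the others. At 96 h replicate 2 of tud females read 2.44, against -2.32 and -3.49. The residual SD was 1.83, and the change over time was called in females (adjusted p = 0.00319, limma) and not in males (adjusted p = 0.281, limma).

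Several members turned round at 96 h. CG32182 (DAC039P03), whose function is not stated here, had the largest difference of all members at 0 h in males, 4.60, with 1.15, 0.94 and 1.09 in tud males and -2.88, -3.89 and -3.86 in wild type males. By 96 h the values were -0.66, -1.17 and -0.88 in tud males and 1.07, 1.02 and 1.13 in wild type males, a difference of -1.98. In females at 96 h tud progeny had -1.25, 0.20 and 0.25 and wild type 0.20, 1.58 and 1.43. The change over time had an adjusted p of 8.92e-08 in males and 1.61e-05 in females (limma). A difference below 0 at 96 h in both sexes was found in 5 members, named after their values were seen: CG32182, CG5346, Galk (galactokinase), DAC031K10 and DAC034I01.

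LysB (DAC035F07, CG1179), a lysozyme of the kind made in the gut, was the member among 9 eligible probes of the immune list. That is 11.1%, against 4.61% of all eligible probes. The medians of the list were -0.11 in males and -0.24 in females. At 24 h LysB was -0.45, -0.08 and 0.04 in tud males, against -3.62, -2.82 and -2.56 in wild type males. Tud females had 0.37, -0.09 and 0.70 at that hour and wild type females -0.98, -1.07 and -1.59. At 48 h the genotypes differed by -0.12 in males and -0.20 in females, within the spread of the arrays. The LysB probe may also bind transcripts of neighbouring, similar lysozyme genes.

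b6 (DAC029D23, CG3100) differed by 1.52 ± 0.27 in males and 1.02 ± 0.26 in females (SE). At 0 h it was -0.61, -0.72 and -0.88 in tud males and -3.69, -2.83 and -3.68 in wild type males. It peaked at 72 h in both genotypes, with 2.15, 2.30 and 1.80 in tud males and 1.28, 0.94 and 1.38 in wild type males. CG12986 (DAC037F06), by contrast, differed by -0.11 to 0.36 in males up to 72 h and by 2.67 at 96 h, with -0.25, -1.27 and -0.84 in tud males against -3.24 and -3.67 in wild type males. In females CG12986 was already higher in tud progeny at 24 h, with -0.36, -0.45 and -0.38 against -0.90, -1.08 and -1.10. At 96 h it was -0.89, -1.46 and -1.67 in tud females, against -3.22, -3.80 and -3.81 in wild type females. Its change over time had an adjusted p of 2.75e-05 in males and 0.00159 in females (limma).

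CG13674 (DAC013N14), whose function is not stated here, was higher at 72 h in both sexes and at 96 h in females without overlap. At 72 h it was -1.37, -1.44 and -1.66 in tud males, against -2.97, -2.93 and -3.03 in wild type males. Tud females at 96 h gave 1.47, 1.28 and 0.70, and wild type females -2.55, -1.94 and -1.81. In males at 96 h replicate 3 of tud progeny fell to the wild type values, with 1.42, 0.38 and -1.13 in tud males and -0.95, -0.51 and -1.16 in wild type males, a difference of 1.10, or 1.78 without it. At 24 h tud females were lower than wild type females, with a difference of -1.09. Its change over time had an adjusted p of 1.60e-06 in females and 0.0108 in males (limma).

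The other gene lists held no member. No member came from the 9 eligible probes of stress genes, 8 of ecdysone-regulated and glue genes, 9 of muscle, 10 of ribosomal proteins or 4 of the odorant-binding and pheromone list. Members were 4.61% of all eligible probes, so an empty list of this size says little about its genes. The medians of the stress list were -0.31 in males and -0.40 in females, and those of the ecdysone-regulated and glue list 0.02 and -0.34. The odorant-binding and pheromone list had medians of 2.06 in males and 2.22 in females at 96 h, although none of its probes met the rule. That list was matched by symbol, and 1 of its 4 probes is of Osi19 (Osiris 19), whose name is of neither kind. Since most members and eligible probes have no paired gene, these counts cover only the named share.

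Sex differences of the members were tested over both genotypes together, a contrast that the rule did not use. Of the 131 members 54 (41.2%) were past the threshold, where 52% of all eligible probes were called. Of these, 8 were higher in males (6.11%, against 16% of eligible probes) and 46 higher in females (35.1%, against 36%). The split was 10 and 30 when arrays were centred on their medians and 6 and 76 after quantile normalization. The difference of males minus females, averaged over hours and genotypes, was below 0 in 110 members (84%), as in 71.4% of eligible probes. Its median was -0.20 in the members and -0.09 in all eligible probes. Within tud progeny the median was -0.19 in the members and 0.00 in the eligible probes, and within wild type -0.23 and -0.20.

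**Figure D5:**
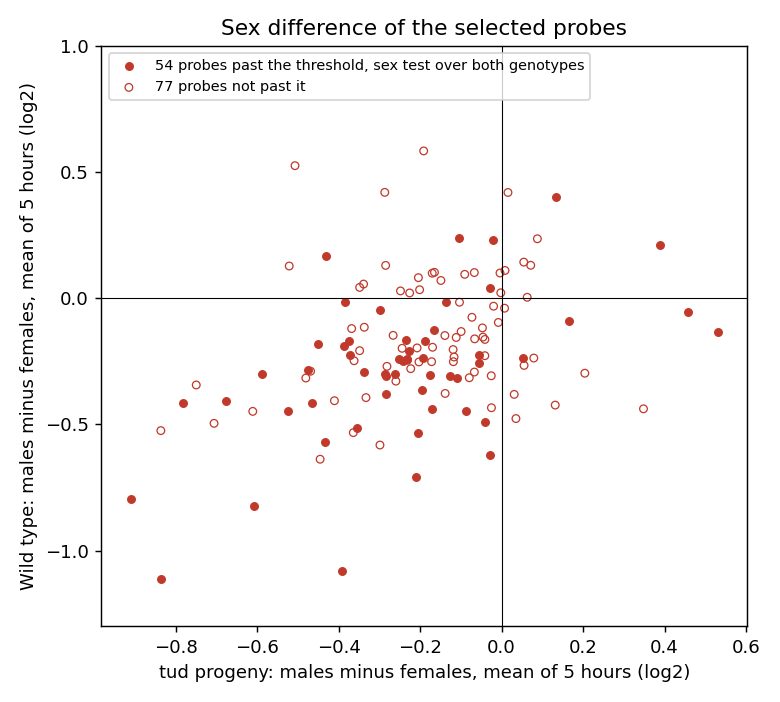
Males minus females, mean of 5 hours on the log2 scale, in tud progeny (x axis) and wild type (y axis) for the 131 members, filled where the sex test over both genotypes was past the threshold (54 probes) and open where it was not (77). Most members lie below and left of 0, that is, higher in females in both genotypes.

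The 4 named members with the smallest adjusted p for sex were all higher in females on average. CG5697 (DAC009J04) had a mean sex difference of -0.17 in tud progeny and -0.44 in wild type (adjusted p = 5.35e-07, limma). CG32695 (DAC038L24) differed most between the sexes among them, by -0.78 in tud progeny and -0.42 in wild type (adjusted p = 1.22e-06, limma). At 96 h it had -0.05 and -0.08 on 2 arrays of tud males and 1.33, 1.09 and 1.24 in tud females, and -0.61, -0.98 and -1.12 in wild type males and -0.04, -0.42 and -0.32 in wild type females. CG1441 (DAC040N08) was higher in females at 48 h, with -0.54, -0.78 and -0.69 in tud males and 0.46, 1.14 and 1.79 in tud females (adjusted p over all hours = 2.07e-06, limma). LysB was the fourth (adjusted p = 2.59e-05, limma), with a mean sex difference of -0.28 in tud progeny and -0.31 in wild type. At 96 h LysB went the other way, with means of -0.08 in tud males and -1.82 in tud females, and of -0.64 in wild type males and -2.11 in wild type females. By contrast, Mgstl had a mean difference of males minus females of 0.53 among tud progeny and of -0.13 among wild type animals. Its adjusted p of 0.0073 (limma) is for the sex difference over both genotypes together. Whether the sex difference of Mgstl differed between the genotypes was not tested.

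For 16 of the 131 members (12.2%, against 21.2% of eligible probes) the course of the genotype difference over the hours differed between the sexes (limma's F test, added after seeing the data). Without replicate 3 of tud males at 96 h this test called 13 members, 10 of them among the 16, and 13.8% of eligible probes. Transcript levels of the members changed through metamorphosis in both genotypes. The test over the 5 hours called 130 members in tud progeny and 128 in wild type, where 96.2% and 96.1% of eligible probes were called. The members had wider courses than most. The range between the highest and the lowest hour had a median of 2.81 in tud progeny and 2.83 in wild type, against 1.46 and 1.39 in all eligible probes. In 91 members (69.5%, against 66.5% of eligible probes) the peak came at the same hour in both genotypes.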

How the data were processed

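The deposited table holds a log2 ratio, sample over common reference, for each array element. The authors applied global loess in limma, and scaling between arrays is not stated. Elements that looked faulty, or were near background in both channels, were discarded by the authors and are missing values here. Labels and methods name opposite dyes for the sample, so the direction rests on roX1. Gene names came from identifier columns of the study's gene lists, updated through RefSeq. The match was by locus tag for 52 of the 54 named members, and otherwise by FlyBase gene number or synonym. No sequences or positions are given, because none of the probes' genome release were at hand. A model of 20 group means was fitted to all 60 arrays and 12342 probes with limma 3.58.1 in R 4.3.3, with moderated F tests and Benjamini-Hochberg adjustment over 2843 probes. The threshold was an adjusted p of 0.15. Means are given with the SE of this fit. The fit was tested on simulated data. Named genes were the 10 named and 3 unnamed members with the largest lower difference, 4 per test by adjusted p, up to 3 per list, and the probes beside the threshold. The members, the rule and the lists were chosen with earlier results of these data known. Alternatives covered scaling, missing values, arrays, weights, the replicate number, adjustment and threshold.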

Additional observations from a re-analysis of the deposited data

Results flagged for a closer look

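For 6 of the members named by rule, the course of the genotype difference over the hours differed between males and females by a direct test (limma's moderated F test of the 4 contrasts, adjusted over 2843 probes, added after seeing the data). This test called 16 of the 131 members (12.2%), where 21.2% of eligible probes were called. For CG13674 (adjusted p = 0.0152) the difference of tud progeny minus wild type was 1.87 for males but -0.11 for females at 0 h, and at 96 h it was 1.10 (1.78 without replicate 3 of tud males, which stood apart) and 3.25. For CG5697 (adjusted p = 0.0408) it was 1.32 in males and 0.07 in females at 96 h. For Prosalpha1 (adjusted p = 0.0725) it was 1.69 in males and 1.19 in females at 0 h, and for Prosalpha1R (adjusted p = 0.126) 1.22 and 0.48 at 96 h. For the unnamed probes DAC029H06 (adjusted p = 0.116) and DAC036E01 (adjusted p = 0.139) it was 1.17 and -0.05 in males at 96 h, and 3.74 and 1.97 in females. Without that array DAC029H06 had 1.92 and DAC036E01 1.03 in males, and the calls of DAC029H06 (adjusted p = 0.278, limma), DAC036E01 (adjusted p = 0.239, limma) and Prosalpha1R (adjusted p = 0.299, limma) were lost. The others kept theirs, with adjusted p of 0.0289 for CG13674, 0.0374 for CG5697 and 0.107 for Prosalpha1 (limma). Calls were gained without that array by yellow-d2 (adjusted p = 0.121, from 0.415, limma) and b6 (adjusted p = 0.148, from 0.213, limma).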

How the results depend on the processing

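The number of members was 88 with arrays centred on their medians, 135 with quantile normalization (114 of them shared), 187, 74 and 16 at differences of 0.4, 0.6 and 1, and 115 to 141 with each of the 60 arrays left out. Requiring all 3 values in every group left 32 members by construction, of which 22 and 30 changed over time in males and females, 9 differed by sex, and 32 and 31 varied over the hours in tud progeny and wild type. The 75 members whose difference changed over time in males became 116 with array weights, 113 with Storey's q and 69 to 90 with single arrays left out. In females the 96 members became 117 with array weights, 117 with Storey's q, 70 at a threshold of 0.05 (52 in males) and 82 to 101 with single arrays left out. The 54 members with a sex difference became 82 with quantile normalization, 87 with array weights, 101 with Storey's q, 27 at a threshold of 0.05, and 46 to 67 with single arrays left out. Counts over the hours ran from 129 to 131 in tud progeny and from 126 to 129 in wild type with single arrays left out. The median difference of the members ran from 0.73 to 0.83 in males and from 0.72 to 0.79 in females when single arrays were left out, and was 0.98 in males with quantile normalization. None of the medians and named mean differences changed sign, but without replicate 3 of tud males at 96 h the male difference at that hour did in 4 members. Arrays with the same replicate number in the labels did not deviate together in the median (correlation of deviations of 0.008). However, 104 of the 570 such pairs had a correlation over 0.1. With the replicate number as a block 76 members in males, 93 in females, 53 for sex, 130 over the hours in tud progeny and 127 in wild type were called. The sex test uses all arrays, so a fit of only the arrays compared was not run for it. Leaving out both tud female 48 h arrays whose labels disagree with their titles left 126 members. For the named members, 112 calls were lost, 188 gained and 5611 kept over all settings. The number of arrays, and ratios far below the reference, limit precision.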

Other observations

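Some members outside the rule for named genes may be followed up, and were picked after their values were seen. Oatp74D, which encodes the importer that takes ecdysone into cells, differed by -0.71 to 0.45 up to 72 h and by 2.36 in males (3.77 without replicate 3 of tud males) and 3.53 in females at 96 h (adjusted p for change over time of 0.0115 in males and 0.000142 in females, limma). Crys, a protein of the corneal lens, differed by 1.68 in males (2.81 without that array) and 2.51 in females at 96 h. Argk1, an arginine kinase of energy metabolism, differed by 0.19 in males (0.65 without that array) and by 2.98 in females at that hour, and the course of the difference over the hours differed between the sexes (adjusted p = 0.00734, and 0.0227 without that array, limma). The largest difference of any member at 96 h was that of the unnamed probe DAC003B17. At 96 h it read 1.01, 0.97 and -7.50 in tud males and -9.37, -7.54 and -7.32 in wild type males, and 0.97, 0.94 and 0.35 in tud females and -8.75, -7.56 and -3.92 in wild type females. At 72 h the same probe read between 0.90 and 2.46 on all 12 arrays of both genotypes and sexes.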
